A study of Homo sapiens with 24 samples.

Results

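Cytosolic ribosomal proteins are the proteins of the ribosomes that translate the mRNA of the nucleus, and their genes were followed here in glioblastoma (GBM) cells exposed to G-1, an agonist of the membrane estrogen receptor GPER. The genes were chosen by symbol (RPL and RPS followed by a number with the usual suffixes, RPSA, and the 3 stalk genes *RPLP0*, *RPLP1* and *RPLP2*), without the RPS6 kinases and without pseudogenes. Of 84 such genes, 83 had a probe on the microarray, out of 24847 genes with a symbol, and 82 passed the filter on dim probes and were tested. They carried 162 tested probes, and each gene is represented by its brightest probe unless another is named. *RPL3L*, a striated muscle paralog, was well above background on 2 of 24 arrays and was not tested.

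RNA of the U251 cell line, a line derived from a human GBM, was hybridized to 24 arrays with 1 colour, 4 per group, described in the methods as independent biological replicates. The cells had received the vehicle (DMSO), G-1 at its IC50 dose (G-1 IC50) or a higher dose (G-1 1 µM), and each treatment lasted either 24 h or 72 h, which makes 6 groups. All cells were grown in medium with serum stripped of steroids before exposure. The sources give different DMSO concentrations, and in 1 field of the labels the duration of the shorter IC50 group and of the longer 1 µM group is the opposite of that in the titles, which were followed. Slides 1 and 2 each held arrays of the vehicle and of the IC50 dose, whereas slide 3 held the 8 arrays of the 1 µM dose alone and was scanned in a second session. A difference between G-1 1 µM and DMSO at 1 duration and a difference between slides or sessions cannot be told apart. The comparison of the 1 µM effect at 72 h with that at 24 h, the interaction, is free of a constant offset of that slide.

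Levels are log2 intensities minus the 75th percentile of each array, so a value of 9 lies 9 doublings above that percentile. They are levels per amount of labelled RNA, in which fewer cells of a kind and less RNA per cell cannot be told apart. Of the astroglial and glioma markers, 7 of 8 (*GFAP*, *VIM*, *NES*, *S100B*, *CD44*, *SOX2* and *FABP7*) were well above background on every array, and *AQP4*, *PTPRC*, *CD3E*, *PECAM1* and *EPCAM* did not pass the filter. *CD14*, *KRT18*, *RBFOX3* and *SYT1*, markers of other cell types, were also above background on every array. Of 2 endothelial markers, 1 passed the filter. At 72 h of G-1 1 µM, 6 of the 7 astroglial markers fell (*GFAP* by 2.71 log2) and *FABP7* rose by 0.79. *CD14* rose by 1.23, *SYT1* by 0.98 and *KRT18* by 0.35, and *RBFOX3* fell by 1.58, and the part of such shifts in the changes of the ribosomal protein genes was not tested. Among the 82 ribosomal protein genes, 79 lay in the brightest decile of tested probes, and no spot was saturated. The median SD between replicates of a group was 0.10 log2, against 0.15 over 14235 genes and 0.10 over the 1845 genes of the brightest decile.

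A ribosome has a small subunit, which reads the mRNA, and a large subunit, which joins amino acids and passes the new chain through an exit tunnel. Its proteins are made in matched amounts, and their mRNAs are among the most abundant of a growing cell. Most of these mRNAs begin with a C followed by a run of pyrimidines, the terminal oligopyrimidine (TOP) tract, through which the mTOR pathway and LARP1 set how much of them is translated. Much of the control therefore acts on translation, which arrays of mRNA do not measure.

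The starts of transcription were read in RefSeq (GRCh38.p14) to see which of the members share the tract. Starts were given for 66 of the 82 tested genes, and *RPL39L* and *RPL7* were among those without one. A C followed by at least 4 C or T on the strand of the gene stood exactly at a start in 46 of the 66 (69.7%), against 5.14% of 27305 genes. Anywhere within 10 bases of a start, it was found in 57 of 66 (86.4%), against 38.4% of all genes. The windows below, of 15 bases before the start and 15 bases from it, show members that rose or fell with G-1 1 µM beside paralogs of the family, with the tract at the start in capitals.
RPS3 (chr11:75399503-75399532, + strand): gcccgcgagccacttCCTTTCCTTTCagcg
RPL27A (chr11:8682777-8682806, + strand): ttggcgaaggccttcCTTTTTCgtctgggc
RPS12 (chr6:132814554-132814583, + strand): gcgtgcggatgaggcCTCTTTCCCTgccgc
RPLP1 (chr15:69452803-69452832, + strand): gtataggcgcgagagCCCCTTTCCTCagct
RPL22 (chr1:6199581-6199610, - strand): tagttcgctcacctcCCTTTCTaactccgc
RPL22L1 (chr3:170870181-170870210, - strand): cgcggccgtagcttcCTCTCTgctctcgcg
RPS27 (chr1:153990747-153990776, + strand): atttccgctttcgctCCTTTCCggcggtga
RPS27L (chr15:63157463-63157492, - strand): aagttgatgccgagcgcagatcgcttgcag
RPL7L1 (chr6:42879601-42879630, + strand): cggaagtgcggcgccgtagctaggagcgga

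The tract was thus present at the start of genes that rose (*RPS3*, *RPL22L1* and, by a dim probe, *RPL27A*) and of genes that fell (*RPS12*, *RPLP1*, *RPL22*), while no such letters stood at the listed start of the paralogs *RPS27L* and *RPL7L1*. At 72 h of G-1 1 µM, 8 of the 46 genes with the tract at a start rose and 8 fell, with a median log2 change of 0.01. Of the 20 genes without it, 3 rose and 2 fell, with a median of 0.09. Over all genes 35.2% rose and 31% fell in that comparison.

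To evaluate the effect of the higher dose, G-1 1 µM was first compared with DMSO at 72 h. The changes of the ribosomal protein genes were small and went both ways. Of the 82 genes, 14 rose and 11 fell at an adjusted p under 0.05 (limma, Benjamini-Hochberg over 22970 probes), which is 30.5% of them, against 66.1% of 14235 genes (35.2% higher and 31% lower) and 64.5% of the genes in the brightest decile. With quantile normalization 35 rose and 9 fell, and relative to the 50th percentile 6 rose and 16 fell, so the split between the directions depended on the scaling. None changed more than 2-fold by its brightest probe, as 12.3% of all genes did. The change stayed within 0.2 log2 of 0 in 61 of 82 members, against 27.4% of all genes and 38.0% of the brightest decile. The median of the absolute change was 0.12 log2 in the members, 0.39 over all genes and 0.27 in the brightest decile.

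**Figure D1:**
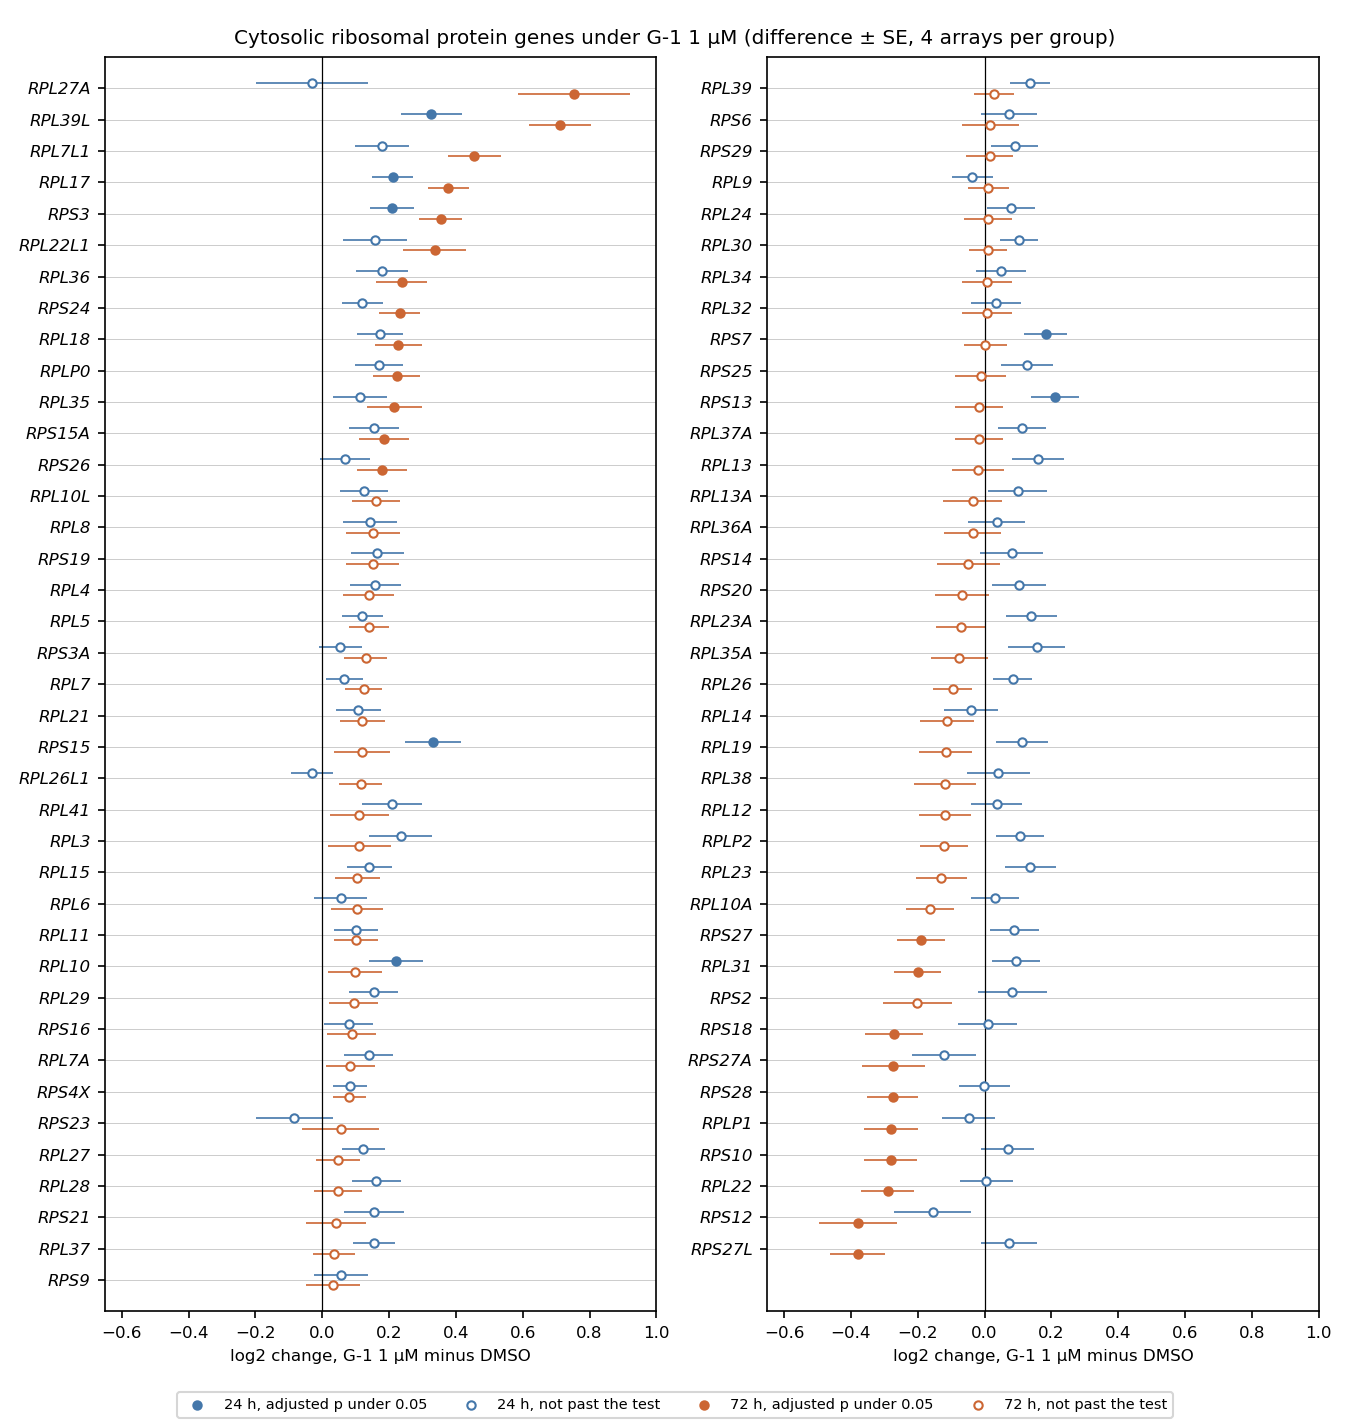
Log2 change (G-1 1 µM minus DMSO) ± SE of 77 of the 82 tested genes at 24 h (blue) and 72 h (orange), 4 arrays per group, ordered by the change at 72 h from the top left to the bottom right. Filled points pass an adjusted p under 0.05, 7 at 24 h and 23 at 72 h, and most points lie within 0.2 of 0.

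Both subunits held genes that rose and genes that fell. Of 46 genes of the large subunit, 7 rose and 3 fell, with a median log2 change of 0.03. Of 30 genes of the small subunit, 4 rose and 7 fell, with a median of 0.01. In this comparison 35.2% of all genes rose and 31% fell, shares that also stand beside the smaller sets below. The split between the directions in the family depended on the scaling, as given above. The 3 stalk genes, which recruit elongation factors, went apart: *RPLP0* rose by 0.22 ± 0.07 (SE), *RPLP1* fell by 0.28 ± 0.08, and *RPLP2* had a difference of -0.12 ± 0.07 that did not pass the test. *RPL5* and *RPL11*, which together with the 5S rRNA can bind MDM2, had differences of 0.14 and 0.10 that did not pass. Among 8 proteins around the exit tunnel, *RPL17* and *RPL35* rose and *RPL22* and *RPL31* fell. Of 4 proteins at the mRNA channel and decoding site, *RPS3* rose and the differences of *RPS2*, *RPS15* and *RPS23* did not pass. Of 15 genes mutated in Diamond-Blackfan anemia, an inherited failure of red cell production, 3 rose and 2 fell, with a median of 0.05.

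Among the genes that rose, *RPS3*, at the entry of the mRNA channel, had levels of 7.54, 7.37, 7.40 and 7.39 under G-1 1 µM and of 6.97, 7.11, 6.99 and 7.21 under DMSO at 72 h. All treated arrays lay above all control arrays, a rise of 0.35 ± 0.06 log2 (1.28-fold, adjusted p = 7.78e-05). *RPL17*, at the exit tunnel, had levels of 8.45, 8.31, 8.30 and 8.25 against 8.04, 8.01, 7.88 and 7.87, again without overlap, a rise of 0.38 ± 0.06 (1.30-fold, adjusted p = 1.94e-05). Another probe of *RPL17* fell, which is taken up with the other genes that have several probes. *RPL27A*, a protein of the large subunit, had the highest change of the family, 0.75 ± 0.17 (1.69-fold, adjusted p = 0.000599), on its sole probe. This probe was dim, far below the brightest probes of all other members. Its arrays were at -0.75, -0.90, -0.57 and -0.88 under G-1 1 µM and at -1.91, -1.82, -1.14 and -1.25 under DMSO, without overlap, although the control arrays spread over as much as the change itself.

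Among the genes that fell, *RPL22*, an RNA-binding protein of the large subunit, had levels of 6.88, 6.78, 6.94 and 6.82 under G-1 1 µM and of 7.07, 7.13, 7.09 and 7.28 under DMSO. The groups did not overlap, and the fall was 0.29 ± 0.08 log2 (adjusted p = 0.00331). A dimmer probe of *RPL22* fell by 0.51. *RPS28*, in the small subunit near the exit of the mRNA, had levels of 10.13, 9.98, 9.87 and 10.03 against 10.24, 10.12, 10.26 and 10.49, where the highest treated array lay just above the lowest control array (change -0.27 ± 0.08, adjusted p = 0.00374). *RPLP1* was at 9.53, 9.34, 9.22 and 9.39 against 9.63, 9.52, 9.76 and 9.69, with 1 treated array inside the control range. *RPS12*, in the beak of the small subunit, was at 7.26, 6.68, 6.94 and 7.04 against 7.36, 7.21, 7.54 and 7.33, a change of -0.38 ± 0.12 (adjusted p = 0.00745) with the highest treated array above the lowest control array. *RPS10* fell by 0.28 ± 0.08 (adjusted p = 0.00415), but its second probe, also bright, rose by 0.20 (adjusted p = 0.0146), and the median over its 4 probes was 0.13, so its probes give no single direction. *RPS18* likewise had a brightest probe at -0.27 and another at 0.25.

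**Figure D2:**
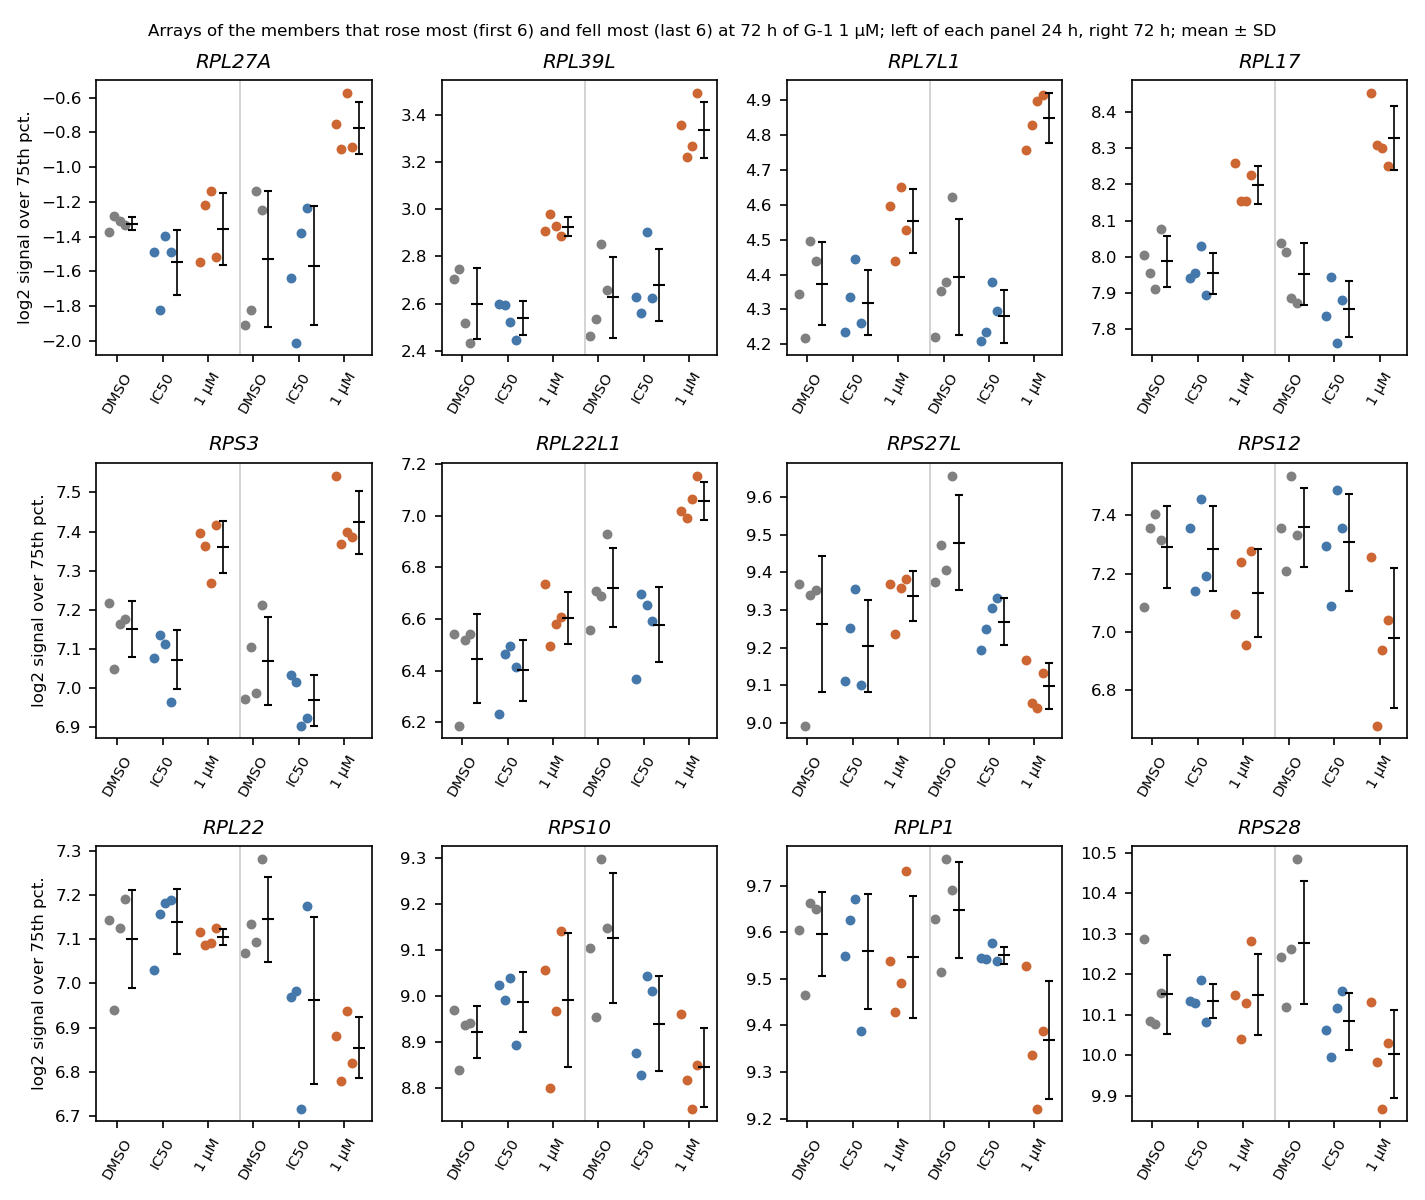
Levels (log2 signal minus the array's 75th percentile, each panel with its own axis that does not start at 0) of the 6 members with the highest rise and the 6 with the largest fall at 72 h of G-1 1 µM, 4 arrays per group, with the mean ± SD in black. At 72 h the G-1 1 µM arrays (orange) of all 6 genes that rose lie above all DMSO arrays (grey), and those of *RPL22* and *RPS27L* below. The genes were chosen by their change in this comparison, so the lack of overlap adds no support. Among the 82 members, the G-1 1 µM arrays lay all above DMSO in 11, all below in 5 and overlapped in 66. The share over all genes was not counted.

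Paralogs of several members exist, which can replace or accompany the canonical protein. Of 6 tested, 3 rose and 1 fell at 72 h of G-1 1 µM, where 35.2% of all genes rose and 31% fell. *RPL39L*, best known from the testis, had levels of 3.36, 3.22, 3.27 and 3.50 against 2.46, 2.53, 2.85 and 2.66 under DMSO, all above the controls, a rise of 0.71 ± 0.09 log2 (1.64-fold, adjusted p = 1.14e-06). Its parent *RPL39* had a difference of 0.03 ± 0.06. *RPL7L1*, a relative of *RPL7* that acts in ribosome assembly, was at 4.76, 4.83, 4.90 and 4.91 against 4.22, 4.35, 4.38 and 4.62, a rise of 0.46 ± 0.08 (adjusted p = 5.46e-05), without overlap. *RPL22L1* rose by 0.34 ± 0.09 (adjusted p = 0.00408), whereas its parent *RPL22* fell, as given above. The treated arrays of *RPL22L1*, at 7.02, 6.99, 7.06 and 7.16, all lay above the control arrays, at 6.56, 6.71, 6.69 and 6.93. *RPS27L*, known as a target of p53, was at 9.17, 9.05, 9.04 and 9.13 against 9.38, 9.47, 9.41 and 9.66, a fall of 0.38 ± 0.08 (adjusted p = 0.000485) without overlap, and its parent *RPS27* fell by 0.19 ± 0.07 (adjusted p = 0.0281, and 0.0517 with quantile normalization). *RPL26L1* and *RPL10L* had differences of 0.11 and 0.16 that did not pass. The probe of *RPL10L* was bright, with a mean of 7.14 under DMSO at 72 h. Probe sequences were not given, so whether the probes of paralogs also bind RNA of the parent genes could not be examined.

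The ratio of paralog to parent within each array was then compared between G-1 1 µM and DMSO with exact two-sided permutation tests of 4 arrays against 4, in 6 pairs at 2 durations. At 72 h the log2 ratio of *RPL22L1* to *RPL22* rose by 0.63, that of *RPL39L* to *RPL39* by 0.68, that of *RPL7L1* to *RPL7* by 0.33 and that of *RPL26L1* to *RPL26* by 0.21, while that of *RPS27L* to *RPS27* fell by 0.19. In these 5 pairs the arrays did not overlap, and the exact p was 0.0286 in each, the smallest that 4 against 4 can give. The share of such pairs among all pairs of genes was not counted, so whether the paralogs differ in this is not known. Adjusted over the 12 comparisons it was 0.0571, so none passed the threshold. The ratio of *RPL10L* to *RPL10* differed by 0.06 (exact p = 0.457). At 24 h the change of the ratio was 0.15 for *RPL22L1* (exact p = 0.0286) and 0.19 for *RPL39L* (exact p = 0.143), both below their values at 72 h.

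The effect of duration was addressed next. At 24 h of G-1 1 µM, 7 of 82 members rose and none fell, 8.54%, against 30.6% of all genes and 30.6% of the brightest decile (20% of all genes rose and 10.5% fell). An unadjusted p under 0.05 was found for 20, against 42.2% of all genes. The median log2 change was 0.10, against 0.04 over all genes and 0.08 in the brightest decile. *RPS15*, at the decoding site, had the highest rise, 0.33 ± 0.08 log2 (adjusted p = 0.00626), with levels of 10.14, 9.98, 10.03 and 10.10 against 9.46, 9.76, 9.75 and 9.94, but a difference of 0.12 ± 0.08 at 72 h that did not pass. The others that rose were *RPL39L* (0.33), *RPL10* (0.22), *RPL17* (0.21), *RPS13* (0.21), *RPS3* (0.21) and *RPS7* (0.18). The count at 24 h rested on the scaling. It was 0 after scaling to the 50th percentile or with another background correction, and 1 after quantile normalization. It was 3 without replicate 1 or without replicate 4 of G-1 1 µM 24 h, and 4 without replicate 2 of DMSO 24 h.

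The difference between the effects at 72 h and 24 h, in which a constant offset of slide 3 drops out, passed the test for 6 of 82 members (7.32%), against 34.1% of all genes (16.4% higher and 17.7% lower) and 31.3% of the brightest decile. The effect of G-1 1 µM was higher at 72 h for *RPL27A* (by 0.78, adjusted p = 0.0162, on its dim sole probe) and *RPL39L* (by 0.38, adjusted p = 0.0289). It was lower at 72 h for *RPS27L* (-0.45, adjusted p = 0.00592), *RPS10* (-0.35, adjusted p = 0.0218), *RPL31* (-0.29, adjusted p = 0.0305) and *RPS27* (-0.28, adjusted p = 0.0460). For *RPS10* this held for its brightest probe only. Its other probes had changes of 0.16, 0.11 and 0.07 at 24 h and of 0.20, 0.14 and 0.12 at 72 h. The interaction also holds the difference of DMSO between 72 h and 24 h. This was 0.22 for *RPS27L*, 0.20 for *RPS10*, 0.17 for *RPL31*, 0.11 for *RPS27*, 0.03 for *RPL39L* and -0.20 for *RPL27A*, none past the test. DMSO had 3 arrays on slide 1 and 1 on slide 2 at 24 h, but 2 on each at 72 h, which does not drop out. Of the members, 56 had a lower value at 72 h than at 24 h and 26 a higher one, with a median of -0.07 log2, against 0.00 over all genes and -0.05 in the brightest decile. Under quantile normalization this median was 0.08 and the split of calls was 14 higher and 1 lower, so the direction for the family depended on the scaling. The count was 2 relative to the 50th percentile, 1 without the filter on dim probes, 2 without replicate 4 of G-1 1 µM 24 h and 3 without replicate 3 of DMSO 72 h.

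At the IC50 dose, no member passed the test at 24 h or at 72 h, where 0.246% and 0.906% of all genes did. At 24 h none had an unadjusted p under 0.05 (4.64% of all genes did), and the differences lay between -0.22 and 0.10, with a median of -0.04 log2. At 72 h the members nevertheless leaned 1 way: 80 of 82 lay below DMSO, 48 of the 82 with an unadjusted p under 0.05 (9.62% of all genes and 13.2% of the brightest decile had one), with a median of -0.17, against -0.02 over all genes and -0.05 in the brightest decile. The lowest values were those of *RPS27* (-0.25), *RPL10A* (-0.25) and *RPS13* (-0.24), and only *RPL39L* and *RPL26L1* lay above 0. Fitted with the slide as a block, the median was -0.14. It was -0.25 within slide 1 (1 G-1 IC50 array against 2 of DMSO) and -0.13 within slide 2 (3 against 2). After quantile normalization it was -0.03, and relative to the 50th percentile -0.08 where the median of all genes was 0.07.

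The 75th percentile, which is subtracted from every value, was 7.95, 7.75, 7.99 and 8.01 on the G-1 IC50 arrays at 72 h, where the median of the members, relative to their means over 24 arrays, was -0.12, -0.19, -0.13 and -0.09. On the DMSO arrays at 72 h the percentile was 7.87, 7.61, 7.72 and 7.50 and the median 0.01, -0.04, 0.04 and 0.15. The percentile was thus mostly higher in the G-1 IC50 group, but within it the array with the lowest percentile had the lowest median. The percentile enters both measures, and its part in the lean at the IC50 dose was not tested.

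**Figure D3:**
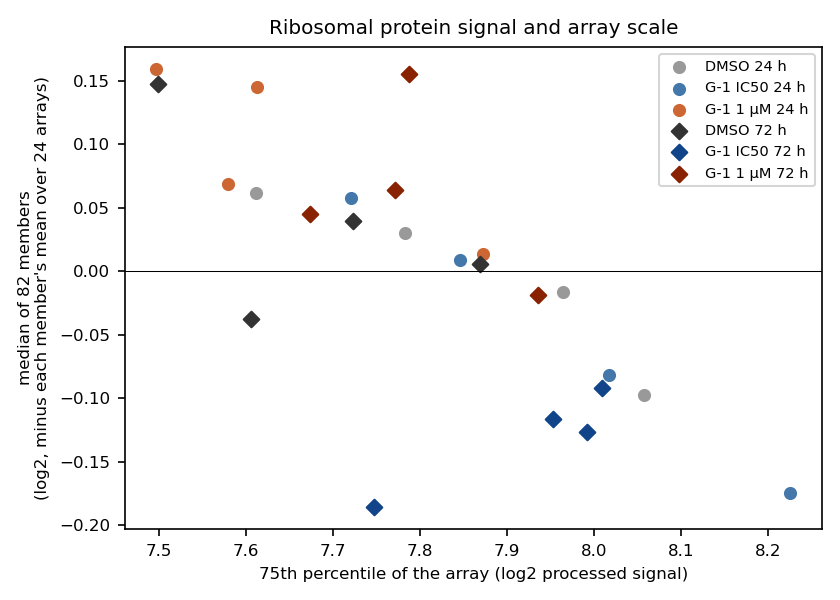
Median over the 82 members of the level on each array, relative to the mean of each member over 24 arrays (log2), against the 75th percentile of that array (log2 processed signal). Points fall from the upper left to the lower right, and the 4 arrays of G-1 IC50 72 h (dark blue) lie between -0.19 and -0.09, the lowest of them at a percentile of 7.75.

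Between DMSO at 72 h and at 24 h, 0 of 82 members passed the test in limma, where 3.34% of all genes did, 6 had an unadjusted p under 0.05 (19.3% of all genes did), and the median difference was 0.03 log2. With the slide as a block, 1 passed.

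More than 1 tested probe was present for 43 of the 82 genes of the family. The most probes for 1 gene were 9, and the median distance between the highest and the lowest change of a gene's probes at 72 h of G-1 1 µM was 0.33 log2. In 9 of these 43 genes, probes passed the test in opposite directions. Neither this share nor the distance was worked out over all genes with several probes. Whether the family differs in this is therefore not known. Over all probes, 62 of 162 passed, against 64.3% of all tested probes. The 3 that changed more than 2-fold at 72 h (13.6% of all tested probes did) were all probes other than the brightest, and came from *RPS29*, *RPL32* and *RPL7*. Among the 9 genes with calls in opposite directions, *RPL7* had the largest gap, 1.54. Its brightest probe differed by 0.12 ± 0.06 (adjusted p = 0.0558), a second rose by 0.32, and another fell by 1.22 ± 0.25 (adjusted p = 0.000272).

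The probe of *RPL7* that fell had levels of 4.78, 4.82, 4.74 and 4.70 on the 24 h arrays of G-1 1 µM and of 5.13, 4.85, 4.92 and 4.82 on the 72 h arrays, so its fall was 1.22 at both durations. Its DMSO levels were split: 5.74, 5.87 and 5.82 on slide 1 and 6.51 on slide 2 at 24 h, and 5.57 and 5.88 on slide 1 and 6.55 and 6.58 on slide 2 at 72 h. Across all groups, its arrays lay between 5.55 and 5.97 on slide 1, between 6.50 and 6.66 on slide 2 and between 4.70 and 5.13 on slide 3. The 3 slides thus did not overlap, although slides 1 and 2 held the same treatments.

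Among the 162 probes, 9 had no overlap between slides 1 and 2, none of them the brightest of its gene: 8 were higher on slide 2, namely 3 of *RPL21* and 1 each of *RPL7*, *RPS3A*, *RPL29*, *RPL17* and *RPS15A*, and 1 of *RPL39* was lower. The share of such probes among all tested probes was not counted, so whether the family differs in this is not known. With the group as a term, slide 2 exceeded slide 1 by 0.94 ± 0.05 log2 (SE, 16 arrays) for 1 probe of *RPL21*, by 0.82 ± 0.06 for that of *RPL7*, by 0.78 ± 0.05 for that of *RPS3A*, by 0.64 ± 0.06 for that of *RPL29* and by 0.53 ± 0.03 for that of *RPL17*, the 5 largest differences among the 162 probes. The brightest probes of the 82 genes differed between these slides by -0.24 to 0.22, with a median of -0.07. On slide 3 these 5 probes lay below both other slides, except that the probe of *RPL29* overlapped slide 1. Under G-1 1 µM, that of *RPL21* had changes of -0.90 at 24 h and -0.84 at 72 h, that of *RPS3A* of -0.91 and -0.71, that of *RPL17* of -0.76 and -0.60, and that of *RPL29* of -0.44 (adjusted p = 0.103) and -0.62. The change differed little between durations in these probes, with interactions of -0.18 to 0.20 that did not pass. The brightest probes had differences of 0.12 for *RPL21* and 0.13 for *RPS3A* at 72 h, neither past the test, and the brightest of *RPL17* rose. The part of the slide in the fall of these 5 probes cannot be told apart from that of G-1 1 µM.

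**Figure D4:**
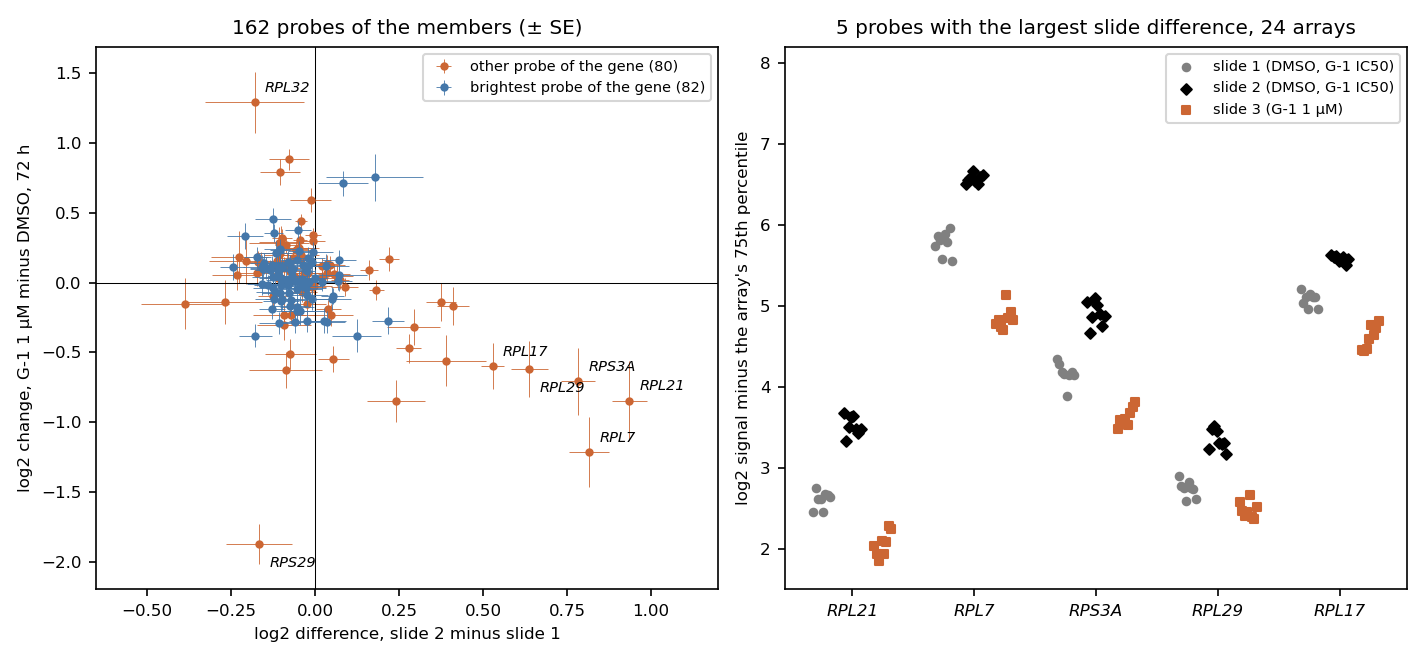
Left, log2 change at 72 h (G-1 1 µM minus DMSO) of the 162 probes against the log2 difference between slide 2 and slide 1 over the 16 DMSO and G-1 IC50 arrays, each ± SE. The named probes of *RPL7*, *RPL21*, *RPS3A*, *RPL29* and *RPL17* lie far right and low, while those of *RPS29* and *RPL32* moved without a large slide difference. Right, levels of these 5 probes on the 24 arrays by slide (log2 signal minus the array's 75th percentile), with slides 1 and 2 apart in each.

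Other probes changed without such a gap between slides 1 and 2. A probe annotated to a second transcript of *RPS29*, a small zinc-binding protein of the small subunit, had levels of 0.39, 0.07, 0.26 and 0.08 at 72 h of G-1 1 µM and of 2.11, 2.26, 1.79 and 2.15 under DMSO, far apart. It fell by 1.88 ± 0.14 log2 at 72 h (adjusted p = 8.19e-10) and by 0.53 at 24 h (adjusted p = 0.00896), with an interaction of -1.34 (adjusted p = 4.82e-05), and slide 2 differed from slide 1 by -0.17. The brightest probe of *RPS29* differed by 0.02 ± 0.07 at 72 h. A dimmer probe of *RPL32* rose by 1.29 ± 0.22 (adjusted p = 3.49e-05), with levels of 3.24, 3.61, 2.62 and 2.98 against 1.84, 2.14, 1.60 and 1.69, where the brightest probe differed by 0.01. The interaction of this probe, 0.78, did not pass (adjusted p = 0.0618). A probe of a second transcript of *RPL28* rose by 0.79 ± 0.09 (adjusted p = 3.45e-07; interaction 0.52, adjusted p = 0.00534). A dim probe of *RPS26* rose by 0.88 ± 0.08 (adjusted p = 4.83e-09; interaction 0.36, adjusted p = 0.0148), where the brightest rose by 0.18 (adjusted p = 0.0426). The changes are those of the single probes: the brightest probes of *RPS29*, *RPL32* and *RPL28* did not pass at 72 h.

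Genes around the ribosome were compared with the family from lists written by function. The mitochondrial ribosomal proteins, which form the separate ribosome of mitochondria, rose at 72 h of G-1 1 µM in 56 of 77 genes and fell in 4, with a median of 0.33 log2, from -0.71 for *MRPS25* to 0.90 for *MRPS23*. The factors of ribosome assembly and RNA polymerase I, which make rRNA and build the subunits in the nucleolus, rose in 22 of 25 and fell in 1, with a median of 0.74. Among them, *DKC1* (pseudouridylation of rRNA) rose by 1.36, *NOP2* (an rRNA methyltransferase) by 1.18, *NCL* (nucleolin) by 0.65 and *FBL* (fibrillarin) by 0.57, while *UBTF*, a factor of RNA polymerase I, fell by 0.37. The interaction with duration passed upward in 19 of the 25 assembly genes, 20 of 77 mitochondrial ones and 2 of the 82 cytosolic ones. At 24 h the rises were 13 of 25 for assembly and 29 of 77 for the mitochondrial ribosome. Over all genes, 35.2% rose and 31% fell at 72 h, and 20% rose at 24 h. The interaction passed upward in 16.4% of all genes.

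**Figure D5:**
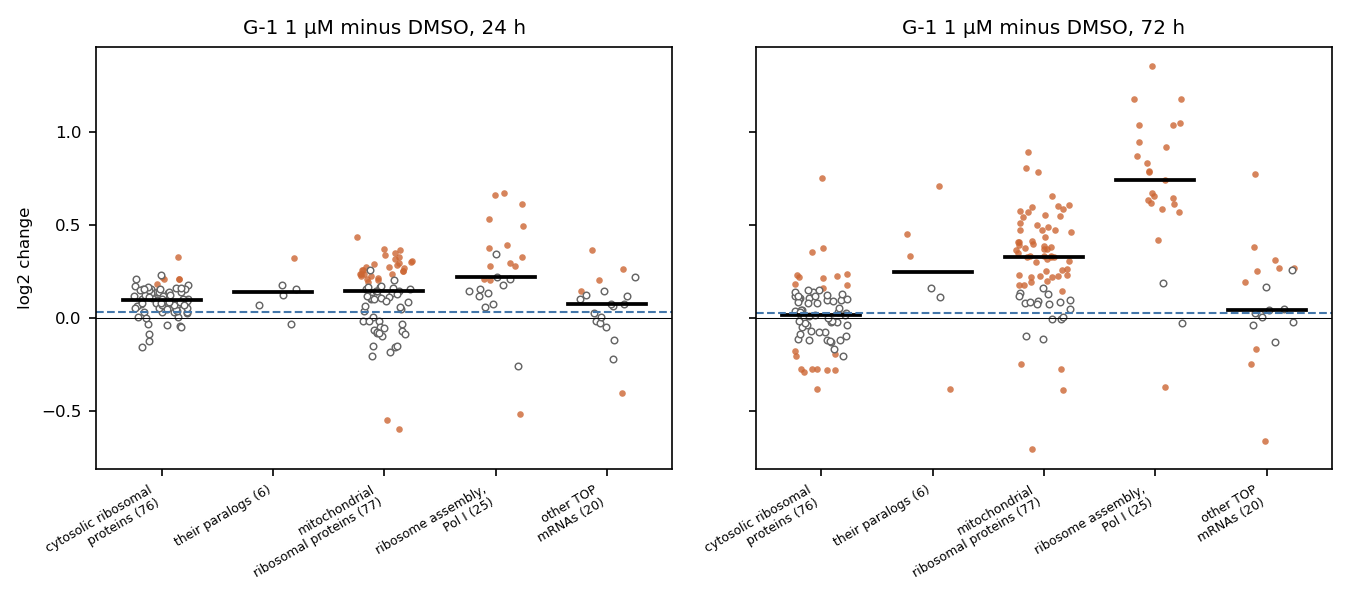
Log2 change (G-1 1 µM minus DMSO) of each gene by its brightest probe at 24 h and 72 h, with the median of each list as a black bar and that of all genes as a dashed blue line. Orange points pass an adjusted p under 0.05. At 72 h the medians are 0.74 for assembly and 0.33 for mitochondrial ribosomal proteins, while the cytosolic ribosomal proteins lie around the line of all genes.

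A few proteins of the cytosolic ribosome lie outside the symbol rule. *FAU*, which is made as a fusion with a ubiquitin-like protein, had a difference of 0.08 at 72 h of G-1 1 µM and *RPL36AL* one of -0.04, neither of which passed, and *RACK1* rose by 0.26 (adjusted p = 0.00243). Of 20 other genes with TOP mRNAs, 7 rose and 3 fell, with a median of 0.05. Over all genes 35.2% rose and 31% fell in that comparison. The elongation factors *EEF1A1* and *EEF2* had differences of -0.04 and 0.03, and *TPT1* one of 0.03, none of which passed, while *EEF1B2* rose by 0.19 (adjusted p = 0.0143) and *PABPC1*, the poly(A)-binding protein, by 0.38 (adjusted p = 2.24e-06).

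Of 15 regulators of ribosomal protein mRNA, 7 rose and 4 fell at 72 h of G-1 1 µM, where 66.1% of all genes passed. *MYC*, which drives transcription of ribosome genes, rose by 1.98 ± 0.15 log2 (adjusted p = 7.28e-10), after 0.65 at 24 h (adjusted p = 0.00326). *EIF4EBP1*, an inhibitor of translation that mTOR inactivates, rose by 1.63 ± 0.12 (adjusted p = 5.39e-10), and *LARP1*, which binds the TOP tract, by 0.37 (adjusted p = 0.000110). *MTOR* had a difference of 0.12, *RPS6KB1*, the S6 kinase, of 0.08, and its substrate *RPS6*, a member, of 0.02, and none of these passed.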

How the data were processed

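The authors deposited, for each array, the spot intensity values written by Feature Extraction (processed signal, background and flags), and a series table of log2 expression, which matched the log2 intensity minus the 75th percentile of each array, centred on each probe's median (median difference 0.0019 log2 over 58118 probes). The file headers give version 12.1.1.1 and the labels 10.7.3.1. Arrays have no read depth, and 4 arrays per group limit the precision.

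Spots marked as outliers were dropped, the others averaged per probe, and the array's 75th percentile was subtracted. A probe entered the test if some group had it well above background on each of its 4 arrays, and 22970 did. They were fitted with limma 3.58.1 in R 4.3.3, in 1 model of 6 group means, with Benjamini-Hochberg adjustment over all probes and a threshold of 0.05, after a check on simulated arrays. Probes were named through RefSeq accessions. The array gave *RPSA* no probe under this naming. Values of a few single genes are not reported here, though the counts and medians include them.

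The members and lists were chosen with earlier results of these data known. Named were the 6 members that rose most and the 6 that fell most at 72 h of G-1 1 µM, 5 with probes of opposite direction, the paralogs with their parents, members in the study's tables of changed genes, and fixed genes of other lists; further genes and probes were named after their values were seen. The values within slides, the slide differences of probes and the tract exactly at the start were also added after seeing the data. So were the values of the percentile, its correlations and the counts of members without overlap of arrays. Alternatives were other scalings, filters, fits, tests, and arrays left out in turn.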

Additional observations from a re-analysis of the deposited data

Results flagged for a closer look

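In the 24 members named by the rule, each of 6 groups of 4 arrays was examined for 1 array far from the other 3 (144 groups). In 7 of them 1 array stood apart, and chance alone gives about 1 in 20. The measure is the gap to the nearest array as a share of the whole range of the group. In DMSO at 24 h, replicate 2 was the lowest for *RPL10* (share 0.851; 9.22, with the next at 9.43), *RPL22L1* (0.934; 6.19, next 6.52) and *RPS27L* (0.922; 8.99, next 9.34). It was the sole array of that group on slide 2. Over the 16 arrays of slides 1 and 2, slide 2 differed from slide 1 by -0.15, -0.21 and -0.18 log2 for these probes. The part of the slide was not tested. *RPS27L* also had a low array in G-1 1 µM 24 h (0.838; 9.24, next 9.36). High arrays were found for *RPS27* in DMSO 72 h (0.875; 10.57, next 10.44), *RPS29* in G-1 1 µM 72 h (0.851; 8.83, next 8.71) and *RPLP1* in G-1 IC50 72 h (0.833; 9.58, next 9.54).

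The effect of G-1 1 µM differed between 72 h and 24 h by the interaction test for 6 members: *RPL27A* (0.78 log2), *RPL39L* (0.38), *RPL31* (-0.29), *RPS10* (-0.35), *RPS27* (-0.28) and *RPS27L* (-0.45). The value of *RPS10* is that of its brightest probe, and its other probes had no lower effect at 72 h. The sole probe of *RPL27A* was dim.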

How the results depend on the processing

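The 12 members named as rising or falling most at 72 h of G-1 1 µM kept their direction and stayed past the threshold under every alternative run for them, except that the median over the 4 probes of *RPS10* was 0.13 (its brightest probe fell). The same median turned *RPL17* at 24 h to -0.034. *RPS27* at 72 h missed the threshold with quantile normalization, without the filter on dim probes, with only the arrays of the comparison, and without replicate 4 of DMSO 72 h or replicate 2 or 3 of G-1 1 µM 72 h (adjusted p = 0.0517 to 0.0900, limma). Of the counts of members past the test, that of G-1 1 µM at 24 h (7) was 1 with quantile normalization, 0 with the 50th percentile, 0 with normexp correction (offset 50, on the median signal), 1 with only the arrays of the comparison, 17 with the methods' t-test unadjusted and 4 after Benjamini-Hochberg, 0 with a fold change above 2 as well, and 21 with any probe of the gene. At 72 h (25, as 14 higher and 11 lower) it was 44 with quantile normalization (35 higher, 9 lower), 22 with the 50th percentile (6 higher, 16 lower), 0 with the fold change and 43 with any probe. The interaction (6) gave 15 with quantile normalization, 2 with the 50th percentile, 1 without the filter on dim probes, 0 with the fold change, and 14 with any probe. G-1 IC50 gave 1 at 24 h and 44 at 72 h with the unadjusted t-test (10.8% of all genes at 72 h), and DMSO over time 1 with the slide block and 2 with that t-test. Leaving out each array gave 3 to 8 at 24 h, 20 to 28 at 72 h and 2 to 9 for the interaction (the lowest, 2, without replicate 4 of G-1 1 µM 24 h, and 3 without replicate 3 of DMSO 72 h), and 0 elsewhere. The median change was 0.043 for G-1 IC50 24 h with the 50th percentile (-0.04 in the report), -0.027 with quantile normalization and -0.085 with the 50th percentile for G-1 IC50 72 h, 0.0088, 0.024 and, with normexp, -0.00602 for G-1 1 µM 24 h, -0.046 with the 50th percentile for G-1 1 µM 72 h, and 0.076 with quantile normalization and 0.014 with normexp for the interaction. *EEF1A1* turned from -0.04 to 0.12 at 72 h with quantile normalization (adjusted p = 0.0484, limma). The causes were not tested.

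Arrays with the same replicate number correlated in part of the pairs and not in every one, so the number was not taken as a pairing: measured as deviations from their group's mean, they correlated at -0.32 to 0.53 over 60 pairs (median 0.12, against -0.04 for other numbers), with 33 pairs over 0.1, and 15 of 24 arrays were nearest to their own number. With the replicate block, 9 members passed at 24 h and 28 at 72 h of G-1 1 µM, 8 in the interaction and 0 in the other comparisons.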
